A study of Mus musculus with 8 samples.

Results

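The cytosolic ribosomal protein genes are described here in mouse pluripotent stem cells. They were chosen by name: symbols that read Rpl or Rps with a number, with at most a short paralog suffix, together with Rplp0, Rplp1, Rplp2 and Rpsa, and without the S6 kinases. Of 85 such genes in the RefSeq gene table, 84 had a probe on the array and all 84 were measured well enough to be tested, among 22685 features in all. The exception, Rpl37, is not analysed here. The 84 comprise 31 genes of the small (40S) subunit, 45 genes of the large (60S) subunit and 8 paralogs or copies (Rpl3l, Rpl7l1, Rpl10l, Rpl22l1, Rpl32l, Rpl39l, Rps4l and Rps27l), of which Rps4l is annotated as a transcribed pseudogene.

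RNA of undifferentiated cells was hybridised to 8 Agilent one-colour arrays, all on 1 slide: 4 arrays of OSKH induced pluripotent stem cells (iPSCs), 3 arrays of OSK iPSCs, which the submitters name as the control, and 1 array of the embryonic stem cell (ESC) line B6J-23. All 3 groups carry the strain label C57BL/6J. OSK is taken to mean the reprogramming factors Oct4, Sox2 and Klf4, and H the oocyte linker histone H1foo; the labels do not spell these out, nor do they name the cells that were reprogrammed, the vector, or whether arrays of a group come from separate clones or cultures. The p-values therefore reflect no more than the scatter of these arrays, which may be technical. The comparisons ask whether iPSCs made with the additional factor differ from those made without it, and how each kind relates to ESCs.

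A ribosome is built from ribosomal RNA and many small proteins, most of them present in a single copy, and cells tend to keep their ribosomal protein genes in step. Their mRNAs are among the most abundant in dividing cells, and most begin with a terminal oligopyrimidine (TOP) tract, a C followed by a run of C and U at the cap, through which mTOR and the RNA-binding protein Larp1 set their translation. In pluripotent cells, which divide fast, ribosome production is high, and a shortfall of single ribosomal proteins is known to free Rpl5 and Rpl11 to bind Mdm2 and stabilise p53. A few members have paralogs with restricted expression: Rpl3l in heart and skeletal muscle, and Rpl10l and Rpl39l in the male germ line.

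The start-site sequences below are shown to compare the run of C and T around the start, where a TOP tract would lie, between genes of both subunits and paralogs, with the parent gene beside a paralog in 3 cases. Each is the 15 bases before and the 15 bases from the RefSeq gene start (build GRCm38.p6), printed 5′ to 3′ on the gene's strand, with the longest run of C and T in the stretch in capitals. The first 4 are 60S and 40S genes: Rpl35 (chr2:39005117-39005146, minus strand), Rpl15 (chr14:18270972-18271001, minus), Rplp2 (chr7:141447636-141447665, plus) and Rps6 (chr4:86857353-86857382, minus). The others are Rps27 (chr3:90213634-90213663, minus) with its paralog Rps27l (chr9:66946071-66946100, plus), Rpl39 (chrX:37085208-37085237, minus) with Rpl39l (chr16:10170213-10170242, plus), Rpl10 (chrX:74270801-74270830, plus) with Rpl10l (chr12:66284387-66284416, minus), and, without its parent, Rpl3l (chr17:24727811-24727840, plus).
Rpl35: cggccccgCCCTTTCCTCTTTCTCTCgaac
Rpl15: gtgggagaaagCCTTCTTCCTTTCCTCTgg
Rplp2: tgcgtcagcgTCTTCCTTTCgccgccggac
Rps6: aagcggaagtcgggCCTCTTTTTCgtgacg
Rps27: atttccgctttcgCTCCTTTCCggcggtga
Rps27l: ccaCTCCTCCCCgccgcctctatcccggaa
Rpl39: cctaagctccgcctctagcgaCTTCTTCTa
Rpl39l: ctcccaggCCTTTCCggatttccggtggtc
Rpl10: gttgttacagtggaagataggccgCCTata
Rpl10l: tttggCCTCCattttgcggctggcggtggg
Rpl3l: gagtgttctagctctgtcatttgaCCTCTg
The run in the printed stretch is 18 bases long in Rpl35, 17 in Rpl15, 10 in Rplp2 and in Rps6, but 3 in Rpl10 and 5 in Rpl10l and in Rpl3l. It lies across the annotated start in Rpl35, Rpl15, Rplp2, Rps6 and Rps27, wholly before the start in Rps27l, Rpl39l and Rpl10l, and after it in Rpl39, Rpl10 and Rpl3l. A run before the annotated start is not part of the mRNA as annotated. Genes not printed here went both ways. Over the same stretch the run was 13 in Rps10, but 5 in Rpl22, 4 in Rpl5 and 3 in Rpl11 and in Rpl41. Within 30 bases on each side of the start, the longest run was 17 in Rpl11 and 9 in Rpl5, but 5 in Rpl22 and 4 in Rpl41. In Rpl22l1, the paralog of Rpl22, it was 10. The printed genes are therefore no measure of how common such runs are in either class.

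Windows of 300 bases, 250 before the start and 50 from it, were at hand for 63 of the 84 measured members. A run of at least 8 C or T on the gene's strand within 30 bases of the start stood in 51.8% of the 56 windows of 40S and 60S genes and in 4 of 7 windows of paralogs and copies, against 22.7% of 27025 genes. CGGAAG, the core letters recognised by ETS factors, stood on either strand in 69.6% of the 40S and 60S windows and in 2 of 7 paralog windows, against 17.2% of all genes. GCCATNTT, the letters of the YY1 motif, stood in 19.6% and in 2 of 7 paralog windows, against 6.20%. GGGCGG, the GC box, stood in 58.9% and in 4 of 7 paralog windows, against 35.9%. Both were again sought on either strand. TATAAA between 40 and 15 bases before the start, on the gene's strand, stood in 0 of 56 windows and in 1 of 7 paralog windows, against 2.21% of all genes. These shares describe letters in the windows, some of which overlap, and are not evidence of binding.

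No spot was saturated, and the share of probes well above background ran from 51.4% to 59.0% by array. A level is the log2 processed signal of a probe minus the 75th percentile of its array. Differences between groups are on that log2 scale, and limma gave their standard errors (SE). All 20 genes of a pluripotency list were well above background on all 8 arrays, with a mean level between 3.68 and 4.70. H1f8, the current symbol of H1foo, lay between -1.70 and -1.16 on OSKH arrays, between -1.67 and -1.33 on OSK arrays and at -1.35 on ESC, so its probe does not separate the groups. OSKH 4 stood apart in lineage genes: the mean level of 8 mesendoderm genes was 2.55 there, between -2.75 and -1.46 on the other OSKH arrays, between -2.79 and -2.32 on OSK arrays and -0.58 on ESC, and 13 fibroblast and 9 trophectoderm genes were also highest there, so results are given with and without it where it matters. The ESC array stood apart in the fibroblast genes as well, with a mean level of 0.37, against 0.79 on OSKH 4, between -1.55 and -1.26 on OSKH 1 to 3 and between -1.93 and -1.18 on OSK arrays. OSKH 4 shares slide row 2 with the 3 OSK arrays, while OSKH 1 to 3 share row 1 with ESC, and arrays 1 to 3 of both iPSC groups share a slide column by number. With slide row as a block, OSKH minus OSK is therefore OSKH 4 alone minus the OSK arrays. OSKH minus ESC is then OSKH 1 to 3 minus ESC, and OSK minus ESC combines both differences.

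By the brightest probe of each gene, the genes of both subunits had almost the same level in OSKH and OSK iPSCs. On these probes the differences of the 76 genes ran only from -0.068 (Rpl21) to 0.19 (Rpl13a), with a median of 0.0093. Less bright probes of the same genes, described below, ran from -0.33 (Rpl6) to 0.39 (Rpl7a). The counts that follow use the brightest probes. The 95% confidence interval of every one of the 76 differences lay within 1.5-fold in either direction, and that of 62 lay within 1.2-fold. Over all features, 13813 of 22685 intervals lay within 1.5-fold and 3189 within 1.2-fold. Among 1357 other features with a mean level over 6, the counts were 1300 and 800, though these features were not matched in level to the 76 genes. Limma called 0 of the 84 members and 0% of all features at an adjusted p under 0.05. At an unadjusted p under 0.05 there were 2 members (2.38%), Rpl3l and Rpl13a, against 6.48% of all features. OSKH and OSK arrays did not overlap in 5 members (5.95%), against 7.34% of features: Rpl13a was higher on all OSKH arrays (1 member, against 3.15% of features), and Rpl3l, Rpl21, Rpl23a and Rps4l were lower (4 members, against 4.19%). In total the members' shares did not exceed those of all features.

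**Figure D1:**
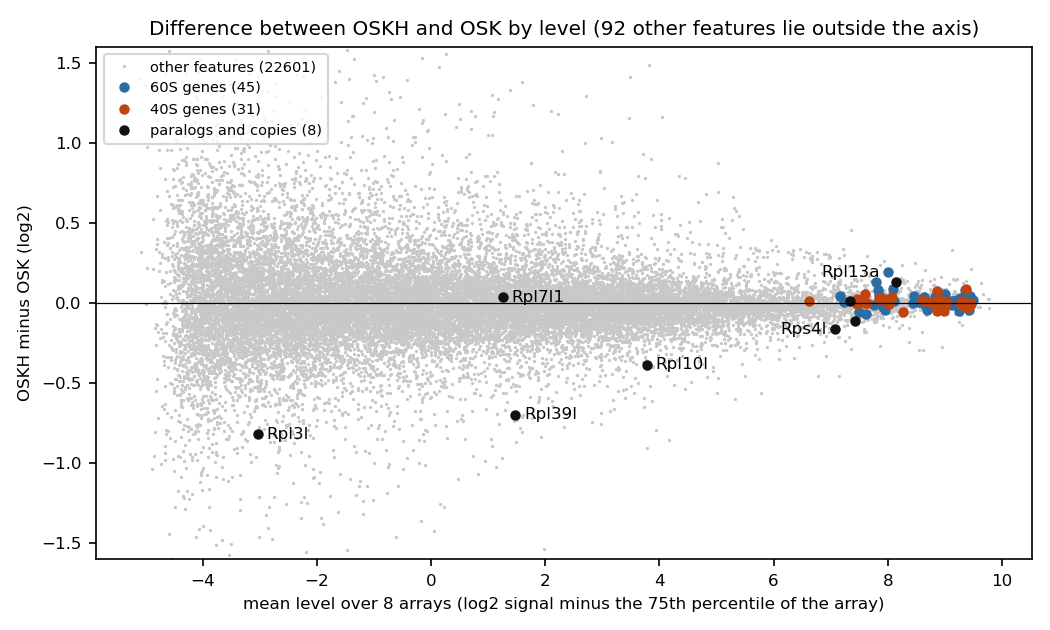
Each point is a feature, with its mean level over the 8 arrays on the x axis (log2, with the 75th percentile of each array at 0) and the OSKH minus OSK difference on the y axis (log2). The 45 genes of the 60S and 31 of the 40S subunit form a tight group at the bright end between -0.068 and 0.19, while Rpl3l, Rpl39l and Rpl10l, at lower levels, lie between -0.82 and -0.39; 92 other features lie beyond the axis at 1.6.

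The acidic stalk, which recruits the GTPases of translation, shows how close the groups were on the brightest probe of each gene. Other bright probes of Rplp0 differed by 0.11 and 0.29, as described below. Rplp0, the base of the stalk, was at 9.45, 9.31, 9.59 and 9.45 on OSKH arrays, against 9.37, 9.29 and 9.56 on OSK arrays and 9.51 on ESC. Rplp2 was at 9.30, 9.22, 9.28 and 9.30 on OSKH arrays, against 9.26, 9.31 and 9.29 on OSK arrays and 9.33 on ESC. The iPSC groups overlapped in both genes, and so did those of Rplp1 and of Rpl12, a protein beside the stalk. The OSKH minus OSK differences of the 4 genes were 0.041 (SE 0.10) for Rplp0, -0.0013 (SE 0.071) for Rplp1, -0.011 (SE 0.069) for Rplp2 and 0.012 (SE 0.089) for Rpl12, with limma adjusted p between 0.969 and 0.999.

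Rpl5 and Rpl11, which enter the ribosome together with the 5S rRNA, were equally close. Rpl5 was at 7.21, 7.15, 7.23 and 7.04 on OSKH arrays, against 7.12, 7.11 and 7.12 on OSK arrays and 7.29 on ESC. Rpl11 averaged 9.34 ± 0.076 in OSKH (SD, n = 4) and 9.33 ± 0.11 in OSK (SD, n = 3). In Rpl5 the OSKH range enclosed the OSK range, with a difference of 0.041 (SE 0.078), and in Rpl11 the difference was 0.010 (SE 0.087). Of 9 proteins that line the peptide exit tunnel, 8 had a positive difference and Rpl23a a negative one of -0.042, with a median of 0.020 beside -0.013 over all features. Of 14 measured proteins of the head of the small subunit, 8 had a positive difference, with a median of 4.2e-04. Rps27a, whose protein is made fused to ubiquitin, was at 9.38, 9.32, 9.42 and 9.42 on OSKH arrays, against 9.33, 9.30 and 9.28 on OSK arrays and 9.53 on ESC. OSKH and OSK overlapped in Rps27a at 9.32 to 9.33 (difference 0.085, SE 0.070, limma adjusted p = 0.894). Fau, which encodes Rps30 fused to a ubiquitin-like domain and whose symbol the naming rule does not take in, differed by -0.052.

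Which sign the members' small differences took depended on the arrays and the scaling. The median over all 84 members was 0.0090, beside -0.013 over all features, with 53 differences above 0 and 31 below it (36.9%, against 53.7% of features). With quantile normalization the split turned to 30 above and 54 below, and scaled to the 50th percentile it was 68 and 16. Leaving out 1 array at a time moved the median between -0.021 (without OSK 2) and 0.046 (without OSK 3). Without OSKH 4 it was 0.017, and with the replicate number as a block it was the same. Within slide row 2, OSKH 4 minus the 3 OSK arrays gave a median of -0.017 with 46 of 84 below 0, beside -0.038 over all features.

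Arrays of one group also differed among themselves. The standard deviation over the 7 iPSC arrays had a median of 0.070 for the 76 genes of both subunits, 0.082 for other features with a mean level over 6 and 0.20 for all features. Rps25 was among those that varied little (SD 0.027). Rps19, which is mutated in Diamond-Blackfan anaemia, varied most of the 76 (SD 0.18). It was at 7.71, 7.42, 7.77 and 7.57 on OSKH arrays, against 7.64, 7.29 and 7.76 on OSK arrays and 7.68 on ESC. Its low arrays were number 2 of each group and its high ones number 3.

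Most members followed that same pattern. On OSKH 2 and OSK 2 only 11 and 14 of 84 members lay above their own mean over the 8 arrays, while on OSKH 3 and on OSK 3 there were 68, of which 60 were the same genes. The median deviation of the members from their own means was 0.012 on OSKH 1, -0.061 on OSKH 2, 0.065 on OSKH 3 and -0.030 on OSKH 4, against -0.035, -0.068 and 0.050 on OSK 1 to 3 and 0.083 on ESC. The 40S and 60S genes moved alike on each array: on OSK 2, for example, their medians were -0.065 and -0.078. The 1357 other bright features shifted the same way, by -0.042 on OSKH 2, 0.032 on OSKH 3, -0.047 on OSK 2 and 0.041 on OSK 3, and arrays of the same number share a slide column. The part of the column, of the scaling at the bright end and of the samples themselves in this pattern was not tested. The brightest members lay within 1 log2 unit of the brightest probe of the array (between 33 and 39 of 84, by array).

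**Figure D2:**
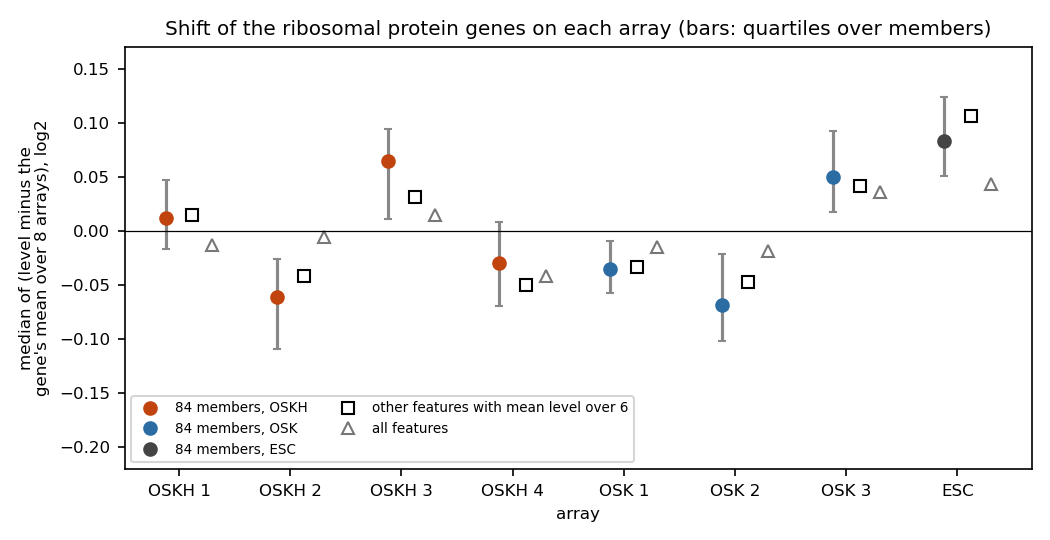
For each array (x axis), the filled point is the median over the 84 members of the level minus the gene's own mean over 8 arrays (y axis, log2), with bars from the lower to the upper quartile, beside the same median for 1357 other features with a mean level over 6 (squares) and for all features (triangles). Members and other bright features are low on array 2 and high on array 3 of both iPSC groups, and highest on ESC.

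**Figure D3:**
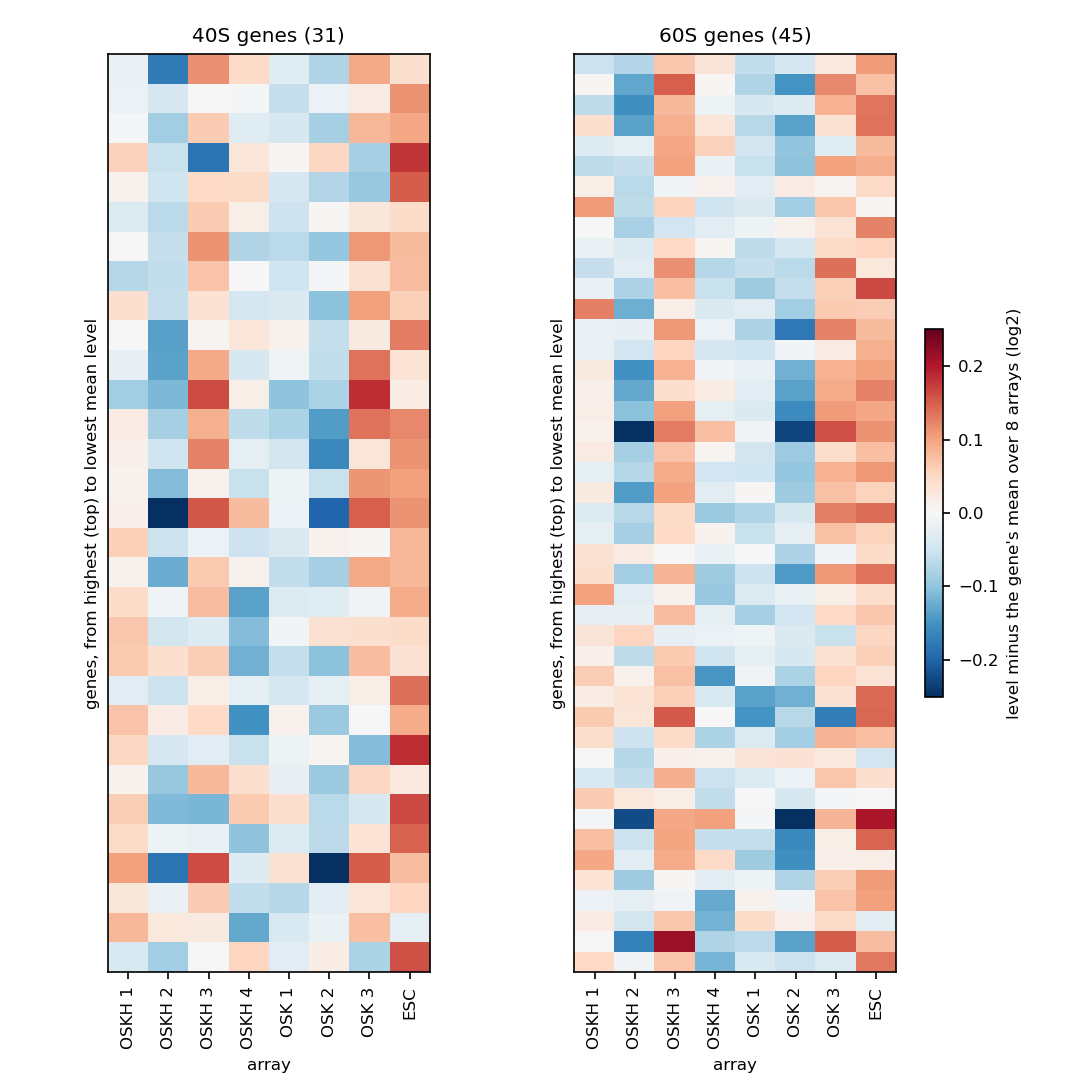
Level of each of the 31 genes of the 40S subunit (left) and 45 genes of the 60S subunit (right) on each array minus the gene's mean over the 8 arrays (log2; red above, blue below, and values beyond 0.25 take the end colour), with 1 row per gene from the highest to the lowest mean level. Columns OSKH 2 and OSK 2 are mostly blue and columns OSKH 3, OSK 3 and ESC mostly red in both subunits.

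Against ESC, both kinds of iPSC had slightly lower levels of most members, but other bright genes did too. The median difference was -0.095 for OSKH minus ESC, with 76 of 84 members below 0 (90.5%, against 59.9% of all features), and -0.10 for OSK minus ESC, with 77 below 0 (91.7%, against 57.3%). Both comparisons share the ESC array, which is a single array, so its own spread is taken to be like that of the iPSC arrays. Marker lists moved with this comparison too: the 13 fibroblast genes had median differences of -1.36 for OSKH minus ESC and -1.94 for OSK minus ESC, and the 20 pluripotency genes -0.22 and -0.29. Their part in the members' difference was not tested. In 38 members (45.2%) every iPSC array lay below ESC, against 18.5% of all features but 49.9% of the 1357 other bright features, whose median differences were -0.12 in both comparisons. In 1 member, Rpl3l, every iPSC array lay above ESC (8.09% of features; 26.6% of features lay wholly on either side). Limma called 0 members in either comparison, and 0% of all features. At an unadjusted p under 0.05 there were 0 members for OSKH against ESC (4.36% of features) and 2, Rpl3l and Rpl7l1, for OSK against ESC (6.02% of features). Quantile normalization, which forces the same distribution on all arrays, left medians of 0.011 for OSKH minus ESC and 0.018 for OSK minus ESC, and 9 members with all iPSC arrays below ESC, so the direction of this difference rests on the scaling. With slide row as a block the medians were -0.084 for OSKH minus ESC and -0.078 for OSK minus ESC.

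Rps15a and Rps20, both 40S proteins, had some of the larger differences from ESC. Rps15a was at 7.91, 7.82, 7.83 and 7.81 on OSKH arrays and 7.85, 7.86 and 7.75 on OSK arrays, against 8.05 on ESC. Rps20 was between 9.22 and 9.47 on OSKH arrays and between 9.33 and 9.46 on OSK arrays, against 9.59 on ESC. All 7 iPSC arrays lay below ESC in both genes, with limma differences of -0.20 (OSKH) and -0.22 (OSK) for Rps15a and -0.22 and -0.19 for Rps20. Rpl23a, an exit tunnel protein, went the other way: the ESC array, at 7.91, was lower than every iPSC array but OSKH 2 (7.89). Its differences were 0.037 for OSKH and 0.079 for OSK.

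The paralogs and copies had larger spreads between arrays. Their SD over the 7 iPSC arrays had a median of 0.13, against 0.070 for the 76 genes of both subunits, and reached 0.65 in Rpl39l, 0.50 in Rpl3l and 0.41 in Rpl10l. These 3 and Rpl7l1 had a mean level under 6, and the SD had a median of 0.20 over features of all levels but 0.082 over bright ones, so the part of signal strength in the wider spread was not tested. Of the 8, 5 had a negative OSKH minus OSK difference, with a median of -0.14.

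Rpl3l, the muscle form of Rpl3, a protein that reaches towards the peptidyl transferase centre, was the member that differed most. It was at -3.03, -3.00, -3.37 and -3.69 on OSKH arrays, against -2.40, -2.32 and -2.64 on OSK arrays and -3.83 on ESC. All OSKH arrays were below all OSK arrays, and ESC was below every iPSC array. Its signal was weak, with a mean level of -3.03 over the arrays. On OSKH 4 and ESC it lay below the median of all deposited values of the array (-3.62 and -3.68). The part of background in its differences was not tested. The OSKH minus OSK difference was -0.82 (SE 0.19, 1.77-fold lower), with a limma p of 0.0037 that did not pass adjustment over all features (adjusted p = 0.732). With normexp background correction it was -0.33. With slide row as a block, which sets OSKH 4 alone against the OSK arrays, it was -1.24. Leaving out 1 array at a time gave differences between -0.92 (without OSK 3) and -0.68 (without OSKH 4). Its parent Rpl3 differed by 0.0077 (SE 0.078).

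Rpl39l replaces Rpl39 at the exit tunnel in ribosomes of the male germ line. It was at 0.70, 1.27, 0.92 and 1.78 on OSKH arrays, against 1.99, 2.51 and 1.11 on OSK arrays and 1.56 on ESC. The groups overlapped through OSKH 4 and OSK 3. Limma put the difference at -0.70 (SE 0.38, adjusted p = 0.835). It came to -0.38 if OSK 2 was left out, to -1.08 if OSK 3 was, and to -0.088 with slide row as a block, for OSKH 4 alone. Rpl39 itself was at 7.89, 7.76, 7.88 and 7.84 on OSKH arrays, against 7.70, 7.64 and 7.80 on OSK arrays and 7.81 on ESC, a difference of 0.13 (SE 0.079). The groups overlapped in the parent as well.

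Rpl10l, an autosomal retrogene that stands in for X-linked Rpl10 in male meiosis, was measured by 2 probes. The brighter was at 4.32, 3.57, 3.34 and 3.35 on OSKH arrays, against 4.05, 4.27 and 3.76 on OSK arrays and 3.54 on ESC. The dimmer probe was at 1.66, 0.90, 0.74 and 0.73 on OSKH arrays, against 1.48, 1.73 and 1.14 on OSK arrays and 0.80 on ESC. On both probes OSKH 1 stood with the OSK arrays while the other OSKH arrays stood near ESC. The differences were -0.39 (SE 0.26) and -0.44 (SE 0.26), with limma adjusted p of 0.856 and 0.84 over all probes. Without OSKH 1 the brighter probe differed by -0.61, and with slide row as a block, for OSKH 4 alone, by -0.68. Rpl10 differed by 0.083 (SE 0.074).

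The other 5 differed less. Rps27l, a paralog of Rps27 and a target of p53, averaged 7.36 ± 0.11 in OSKH (SD, n = 4) and 7.47 ± 0.16 in OSK (SD, n = 3). Rpl22l1, whose expression Rpl22 restrains, averaged 7.33 ± 0.066 in OSKH (SD, n = 4) and 7.32 ± 0.081 in OSK (SD, n = 3). Rpl7l1, a relative of Rpl7, was at 1.26, 1.27, 1.23 and 1.19 on OSKH arrays, against 1.29, 1.22 and 1.09 on OSK arrays and 1.49 on ESC. OSKH and OSK overlapped in these 3 genes, with differences of -0.11 (SE 0.11), 0.011 (SE 0.080) and 0.037 (SE 0.080), while in Rpl7l1 all 7 iPSC arrays lay below ESC. Rps4l was at 7.06, 7.07, 7.03 and 6.83 on OSKH arrays, against 7.16, 7.19 and 7.13 on OSK arrays and 7.14 on ESC. Its groups did not overlap, with a difference of -0.16 (SE 0.086, limma adjusted p = 0.826). This difference was -0.11 without OSKH 4 and -0.33 with slide row as a block, for OSKH 4 alone. Rpl32l, a copy of Rpl32, had a difference of 0.13 (SE 0.086). Such copies resemble their parent genes, and how far the parent's RNA reached their probes was not tested.

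**Figure D4:**
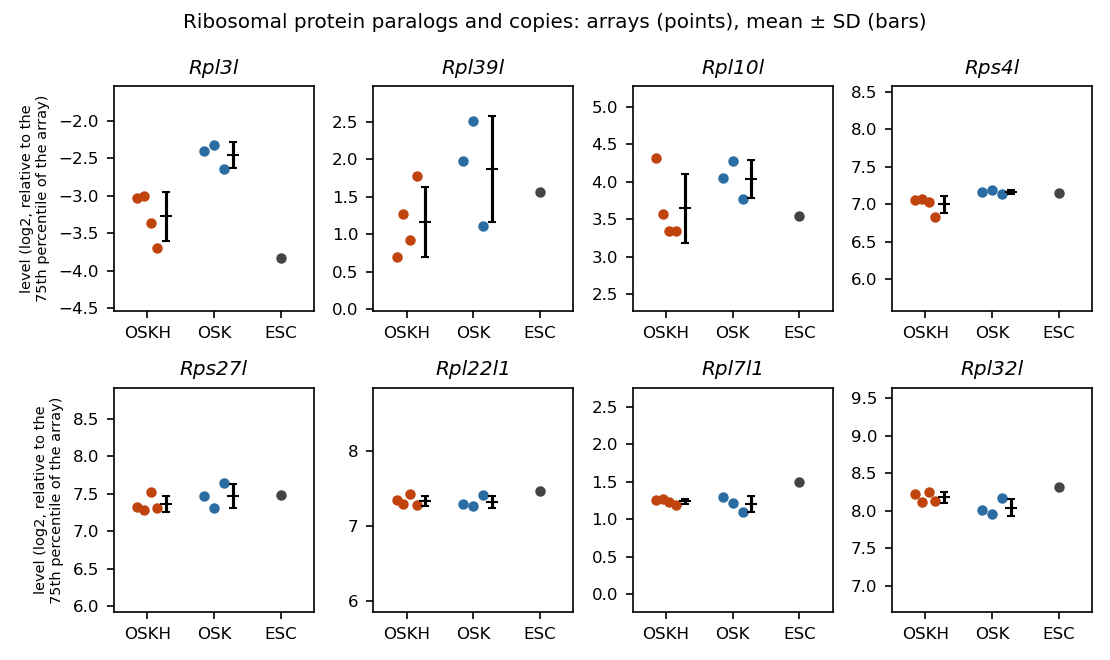
Levels of the 8 paralogs and copies on each array (points; log2, with the 75th percentile of each array at 0), with mean ± SD bars for OSKH (n = 4) and OSK (n = 3); each panel spans 3 log2 units. Rpl3l is lower on all 4 OSKH arrays than on all 3 OSK arrays, and the groups overlap in Rpl39l and Rpl10l.

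In some genes the probes differed from each other. The 84 members had 172 probes, and 53 members had more than 1. In limma over 30834 probes, 0 probes were called; at an unadjusted p under 0.05 there were 7 member probes (4.07%, against 6.52% of all probes), and 16 member probes (9.30%, against 7.32%) had no overlap between OSKH and OSK arrays. Among 146 member probes at a level of 6 or over, 3 differed by more than 0.2 in either direction, a threshold chosen after the values were seen. That is 2.05%, against 5.02% of 1513 other probes at that level, so such differences were no more frequent among the members; the 3 are given as a description of where probes of a gene disagree. They belong to Rpl7a, Rplp0 and Rps24, and none is the brightest probe of its gene.

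Rpl7a, a 60S protein, had 4 probes. The one with the largest difference was at 7.76, 7.80, 7.82 and 7.91 on OSKH arrays, against 7.48, 7.45 and 7.37 on OSK arrays and 8.18 on ESC. OSKH lay above OSK without overlap and below ESC (difference 0.39, SE 0.080, limma adjusted p = 0.745). Its other probes differed by 0.052, -0.023 and 0.18. The third probe of Rplp0 was at 8.24, 8.12, 8.20 and 8.09 on OSKH arrays, against 7.91, 7.87 and 7.83 on OSK arrays and 8.41 on ESC. The order of the groups was the same as in Rpl7a (difference 0.29, SE 0.078, limma adjusted p = 0.745), while the other probes of Rplp0 differed by 0.041 and 0.11.

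Rps24, a 40S protein whose transcripts differ in their last exons, had 1 probe for each of 3 RefSeq transcripts. The brightest differed by 0.0094 (SE 0.14) and the dimmest by -0.071 (SE 0.095). The other was at 8.15, 8.31, 8.29 and 8.24 on OSKH arrays, against 8.41, 8.56 and 8.54 on OSK arrays and 8.19 on ESC. Here OSKH lay below OSK without overlap and around ESC (difference -0.25, SE 0.085, limma adjusted p = 0.745). Rpl13a, a 60S protein that in human myeloid cells also takes part in silencing inflammatory mRNAs, had probes that disagreed in sign. Its brightest was at 8.08, 8.04, 8.17 and 8.01 on OSKH arrays, against 7.86, 7.94 and 7.84 on OSK arrays and 8.16 on ESC, a difference of 0.19 (SE 0.076). The other 2 lay lower on all OSKH than on all OSK arrays, with differences of -0.11 and -0.087, and with the mean of its probes Rpl13a differed by -0.0017.

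The dim probes of 40S and 60S genes were lower in OSKH with 1 exception, while the brighter probes of the same genes lay on both sides of 0. Of their probes, 21 had a mean level under 6 and 142 a higher one. The 21 belong to 12 genes of the 60S and 7 of the 40S subunit, and the level of 6 was set after the values were seen. Of the 21, 20 were lower in OSKH than in OSK (95.2%, against 54.9% of 29149 other probes under that level), with a median difference of -0.13 beside -0.021 for the other probes. The exception was a probe of Rpl23 (0.036). Of the 142 brighter probes, 56 were lower in OSKH (39.4%, against 52.1% of 1513 other bright probes). Both shares moved with the scaling. They were 62.0% against 55.7% with quantile normalization, 21.8% against 40.3% scaled to the 50th percentile and 36.6% against 48.6% with normexp. Of the 21 dim probes, 20 were lower with quantile normalization, 18 scaled to the 50th percentile and 19 with normexp. Of the other probes under level 6, 52.9%, 50.9% and 54.4% were lower in the same settings. The 35 brighter probes of the same 19 genes had a median of 0.011, with 12 below 0. For 17 of the 21 dim probes, a brighter probe is annotated to the same RefSeq transcript, so the transcript name does not separate them. No test is given over the dim probes, since they were set apart after the pattern was seen.

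The dim probe of Rps25, a 40S head protein needed by some viral entry sites, was at 0.10, 0.07, 0.07 and -0.03 on OSKH arrays, against 0.30, 0.22 and 0.22 on OSK arrays and 0.14 on ESC. That of Rps27a was at -0.18, -0.24, -0.30 and -0.34 on OSKH arrays, against -0.06, -0.12 and -0.02 on OSK arrays and 0.11 on ESC. In both, all OSKH arrays were below all OSK arrays, with differences of -0.19 (SE 0.076) and -0.20 (SE 0.080) and limma adjusted p of 0.754 for each. A pair of dim probes of Rpl21, a 60S protein, differed by -0.18 (SE 0.078) and -0.17 (SE 0.12), against -0.068 for its bright probe. By array, the median deviation of the 21 dim probes from their own means was -0.055, -0.027, -0.065 and -0.066 on OSKH 1 to 4, against 0.022, 0.063 and 0.089 on OSK 1 to 3 and 0.0053 on ESC. OSKH 4 minus OSK, within slide row 2, was below 0 for 18 of 21, against 57.6% of the other probes under level 6. Leaving out 1 array at a time gave between 17 (without OSK 3) and 21 (without OSK 1) of 21, against 51.4% and 55.9% of the other probes. These recounts use the arrays on which the set was chosen, so they are no independent support for the pattern. What these probes detect was not tested, since the probe sequences and their places in the transcripts are not used here.

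**Figure D5:**
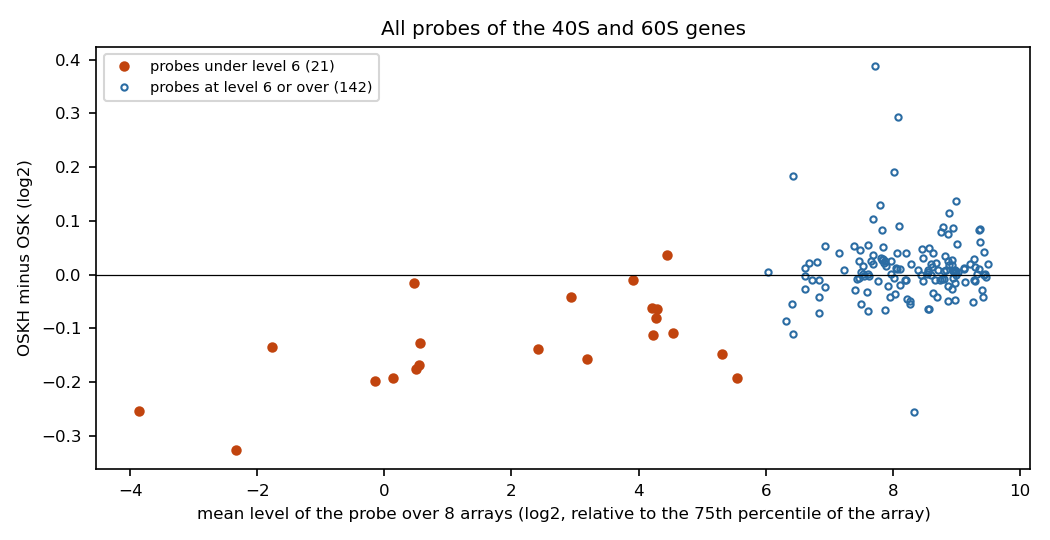
Each point is a probe of a 40S or 60S gene, with its mean level over 8 arrays on the x axis (log2, with the 75th percentile of each array at 0) and its OSKH minus OSK difference on the y axis (log2). Of 21 probes under level 6 (filled), 20 lie below 0, while the 142 probes at level 6 or over (open) lie on both sides, with Rpl7a at 0.39 and Rplp0 at 0.29 the highest and Rps24 at -0.25 the lowest.

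The translation factors and related genes whose mRNAs also carry a TOP tract also had differences near 0. Of 22, 12 had a positive and 10 a negative OSKH minus OSK difference, with a median of 0.0022. Pabpc1, the poly(A)-binding protein, had a difference of 0.14 (SE 0.12), and Eef1a1, the elongation factor that delivers tRNAs, one of 0.10 (SE 0.11). Against ESC the medians were -0.097 for OSKH and -0.097 for OSK, with 20 and 21 of 22 below 0, and as in the ribosomal protein genes both medians were above 0 under quantile normalization (0.015 and 0.025). Of 20 genes of the mTOR pathway and TOP regulators, 9 had a positive OSKH minus OSK difference, with a median of -0.023, and limma called 0 in any comparison. Tsc1, which restrains mTOR through Rheb, had differences from ESC of 0.34 (SE 0.13) for OSKH and 0.42 (SE 0.14) for OSK.

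Most genes that build ribosomes had a negative OSKH minus OSK difference, with no gene passing the test. In the 42 genes of small subunit processing, 32 had a negative OSKH minus OSK difference (76.2%, against 53.7% of all features), with a median of -0.046. In 50 measured genes of large subunit processing 37 did (74.0%), with a median of -0.061, beside -0.013 over all features. Both medians were below 0 under each scaling run, and without OSKH 4 they were -0.026 and -0.039. Without that array 27 of 42 (64.3%) and 29 of 50 genes (58.0%) were below 0, smaller shares than with it. The share over all features in that setting is not given here. Among probes of genes other than the members, 52.9% under level 6 and 45.1% at level 6 or over were then lower in OSKH. Nol11, a subunit of the small subunit processome, differed by -0.22 (SE 0.077), and Rsl24d1, a placeholder for Rpl24 in pre-60S particles, by -0.18 (SE 0.075). Lyar, a nucleolar processing factor, lay the other way at 0.34 (SE 0.12). Of 18 measured genes of RNA polymerase I and rRNA transcription, 11 had a negative difference (61.1%), a share near the 53.7% of all features, with a median of -0.060. Myc, which drives ribosome production, had the smallest p among them, with a difference of -0.56 (SE 0.16, limma adjusted p = 0.732). Against ESC the medians of the same 3 lists were between -0.20 and -0.17 for OSKH and between -0.20 and -0.15 for OSK. These medians were below 0 under quantile normalization, between -0.099 and -0.092 for OSKH and between -0.088 and -0.066 for OSK, beside -0.011 and -0.0066 over all features. Nip7, a 60S assembly factor, had differences from ESC of -0.46 (SE 0.12) in OSKH and -0.37 (SE 0.12) in OSK.

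In the list of ribosomal protein surveillance by p53, 7 of 12 measured genes had a negative OSKH minus OSK difference, with a median of -0.096. Mdm2, the target of free Rpl5 and Rpl11, was at 4.81, 4.99, 4.93 and 4.59 on OSKH arrays, against 5.47, 5.44 and 4.99 on OSK arrays and 5.06 on ESC. The groups overlapped, since OSK 3 lay marginally below the highest OSKH array, OSKH 2 (difference -0.47, SE 0.16, limma adjusted p = 0.732). The 4 ribosomal proteins on this list, Rpl5, Rpl11, Rpl23 and Rpl26, differed by 0.041, 0.010, 0.035 and 0.090.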

How the data were processed

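The 8 array files were made with Agilent Feature Extraction 11.5.1.1, per the file headers. The deposited intensity used is the software's processed signal of a spot, whose background and detrending settings the headers do not record. The deposited log2 value table differed from log2 signals scaled here by a near-constant offset on each array (100% of probes within 0.01 of it); its column medians ran from -3.72 to -3.61, and no source used here names its software.

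Control spots (3671) and outlier spots were left out, the spots of each of 55667 probes averaged, and the log2 signal scaled to the 75th percentile of the array. Probes well above background (by a majority of their spots, ties included) on at least 3 arrays were tested, with the brightest probe taken per gene. Accessions were matched to RefSeq symbols (GRCm38.p6). limma 3.58.1 under R 4.3.3 fitted the 3 groups (5 residual and 1.85 prior degrees of freedom), and p-values were adjusted by Benjamini-Hochberg over the whole table, with a call at under 0.05. The number of arrays limits the precision. The test was run on simulated data with independent noise and planted changes larger than any OSKH minus OSK difference of a member. It was therefore not checked at differences of the members' size. Members, lists and the rule for named genes (smallest p in each direction, structural groups, highest and lowest level and spread) were chosen with earlier results of these data known. The files used here hold median and no mean signals, so normexp (offset 50) used median signals, added after seeing the data. Deviations of arrays 1 to 3 from their group means correlated between OSKH and OSK arrays of the same number (0.47, 0.26 and 0.45 over features). Of the pairs of unlike number, OSKH 2 with OSK 3 also correlated positively (0.16). Over the 84 members, OSK 1 correlated more with OSKH 2 (0.23) than with OSKH 1 (0.17). The labels state no pairing, so the numbers, which also share slide columns, were taken to pair the arrays from these same data.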

Additional observations from a re-analysis of the deposited data

Results flagged for a closer look

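In 8 of 84 members, 1 of the 4 OSKH arrays stood far from the other 3, with a gap to the nearest array that was above Dixon's critical value at 95% as a share of the range; chance flags about 1 in 20 groups, and an array's values move together over many members. OSKH 3 was high in Rpl15 (8.55), Rpl35a (8.02), Rpl38 (9.12) and Rps27l (7.53), as in most members on that array. OSKH 4 was low in Rpl21 (7.49), Rps18 (7.95) and Rps4l (6.83), and OSKH 2 was low in Rpl23a (7.89). None of the 8 genes was called in any comparison. The flag was counted over the members only, so no share over all features can be set beside the 8 of 84.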

How the results depend on the processing

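Limma called 0 ribosomal protein genes in the 3 comparisons under every alternative run. Over all features, slide row as a block called 47 for OSKH against OSK and 38 for OSK against ESC, and no filter on dim probes called 11 for OSKH against ESC and 9 for OSK against ESC; other settings called 0. With quantile normalization the members' median was 0.011 for OSKH minus ESC and 0.018 for OSK minus ESC, and 9 members had ESC above all iPSC arrays. Leaving out 1 array at a time gave members' medians between -0.021 and 0.046 (OSKH minus OSK), between -0.12 and -0.071 (OSKH minus ESC) and between -0.14 and -0.066 (OSK minus ESC), and 0 features called; the members with ESC above all remaining iPSC arrays numbered between 38 and 45, a count that leaving out an array can keep or raise but not lower. The replicate block, pairing OSKH 1 to 3 with OSK 1 to 3, called 0 features and gave a members' median of 0.017; it changed no call. Of 636 values of the 8 paralogs and copies and of Rpl9, Rpl13a, Rpl21 and Rpl23a under alternatives, 41 moved by more than the spread between arrays. The ESC group is 1 array, and normexp is an alternative added after seeing the data. The cause of these shifts was not tested.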
